A study of Mus musculus with 15 samples.

Results

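The proteasome genes of mouse liver were followed across 5 diet and flavonol groups. They were taken as every gene of the deposited expression table whose symbol starts with Psma to Psmg and continues with a number, which gave 49 of 16809 genes. Of these, 14 encode the subunits of the standard 20S core, 17 encode subunits of the 19S regulator, and together these 31 make up most of the 26S proteasome. The other 18 encode the 3 catalytic subunits of the immunoproteasome, a testis subunit (Psma8), 3 assembly chaperones of the 19S base, 6 activators and regulators of the core, 4 assembly chaperones of the core, and Psmc3ip, a recombination factor that is named for binding a subunit.

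Liver RNA was sequenced in 15 libraries, 3 in each group, all from mice labelled as wild type and all after 6 weeks of feeding. Control mice ate standard feed, and model mice ate 78.8% standard feed with 1% cholesterol, 0.2% sodium cholate, 10% egg yolk powder and 10% lard. The remaining groups ate a high-fat feed and were gavaged daily with a plant flavonol: quercetin (200 mg/kg per day), myricetin (75 mg/kg per day) and kaempferol (100 mg/kg per day) in separate groups. The labels do not state the composition of that feed, which was taken to be the model diet, nor whether control and model mice were gavaged, nor strain, sex or age. Whether each library is a different mouse is not stated either, so the p-values measure the spread between libraries, which may be technical. Libraries are called by their group and the number in their title. The doses differed, so the 3 flavonols are given side by side, each against the model group, and are not compared with each other. All 3 comparisons share the same model libraries.

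The proteasome degrades proteins that carry ubiquitin chains. Its 20S core is a barrel of outer alpha rings and inner beta rings, with the proteolytic threonines of Psmb5, Psmb6 and Psmb7 facing the lumen. The 19S regulator caps the barrel: its lid and base bind and strip ubiquitin, and its ring of 6 ATPases unfolds the substrate. Interferon induces the replacement subunits Psmb8, Psmb9 and Psmb10, which take the places of Psmb5, Psmb6 and Psmb7 and change the peptides made for antigen presentation. When proteasome activity is short, the transcription factor NRF1 (Nfe2l1), with small MAF partners such as Mafk and Maff, is known to raise the subunit genes together through antioxidant response elements.

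The libraries held 15.9 M to 17.6 M expected counts and 14615 to 14929 genes with counts. Of the 15 hepatocyte marker genes listed, 14 were in the table and all 14 were tested, and their summed level was 90411 to 136124 CPM (counts scaled to a common library size) in every library. The proteasome genes took 0.30% to 0.408% of the counts. This share was 0.311% ± 0.0121 in control, 0.315% ± 0.0123 in model, 0.396% ± 0.0113 in quercetin, 0.382% ± 0.0243 in myricetin and 0.358% ± 0.0195 in kaempferol libraries (SD, n = 3 each). In bulk liver RNA, more or fewer cells of a type and more or less RNA per cell cannot be told apart.

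Promoter sequences show the stretch in front of those genes whose level is described most closely below. They are 250 bases before an annotated transcript start, which need not be the outermost start of the gene, from RefSeq on build GRCm38.p6, and 41 of the 49 genes had one. Capitals mark matches on either strand to TGACNNNGC (the antioxidant response element core), to CCAAT, or to the interferon response element core (GAAA, any 2 bases, GAAA). The genes shown are Psmb10, Psmb3, Psma7, Psmb6 and Psmd9, of the 7 genes that passed the test with quercetin.
Psmb10 (chr8:105938393-105938642, minus strand): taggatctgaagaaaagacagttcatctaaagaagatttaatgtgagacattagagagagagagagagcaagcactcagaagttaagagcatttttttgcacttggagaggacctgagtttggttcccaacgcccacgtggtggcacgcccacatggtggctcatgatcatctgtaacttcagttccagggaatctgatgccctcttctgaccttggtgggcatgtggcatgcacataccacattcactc
Psmb3 (chr11:97703184-97703433, plus strand): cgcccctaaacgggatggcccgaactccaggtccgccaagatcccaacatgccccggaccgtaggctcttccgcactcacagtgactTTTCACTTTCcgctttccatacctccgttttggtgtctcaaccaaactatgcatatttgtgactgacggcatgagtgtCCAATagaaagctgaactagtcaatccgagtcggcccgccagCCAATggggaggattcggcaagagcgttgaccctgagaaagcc
Psma7 (chr2:180042465-180042714, minus strand): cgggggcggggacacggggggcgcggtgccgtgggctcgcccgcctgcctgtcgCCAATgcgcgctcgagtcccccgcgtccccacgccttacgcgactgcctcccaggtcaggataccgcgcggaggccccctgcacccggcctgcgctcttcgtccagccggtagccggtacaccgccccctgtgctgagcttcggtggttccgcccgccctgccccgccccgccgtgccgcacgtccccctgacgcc
Psmb6 (chr11:70525107-70525356, plus strand): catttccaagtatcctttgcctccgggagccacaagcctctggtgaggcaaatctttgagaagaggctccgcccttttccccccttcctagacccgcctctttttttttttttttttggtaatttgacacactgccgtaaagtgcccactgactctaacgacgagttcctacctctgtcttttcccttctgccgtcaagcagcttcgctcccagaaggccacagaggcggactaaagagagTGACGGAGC
Psmd9 (chr5:123227940-123228189, plus strand): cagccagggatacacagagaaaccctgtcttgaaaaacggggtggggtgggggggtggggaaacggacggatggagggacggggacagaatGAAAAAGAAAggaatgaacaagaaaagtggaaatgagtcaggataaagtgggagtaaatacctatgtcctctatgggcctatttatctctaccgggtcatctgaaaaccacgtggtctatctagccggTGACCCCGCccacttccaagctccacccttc
Psmb6 and Psmd9 carry the antioxidant core 9 and 31 bases before the start, and Psmd9 and Psmb3 carry the interferon core 159 and 163 bases before it. Psmb10 has none of the 3 motifs in this window. Psma4 and Psmg1, the passing genes whose windows are not shown, have none of them either. The antioxidant core was found in 5 of 41 proteasome promoters (12.2%: Psmb5, Psmb6, Psmc6, Psmd12 and Psmd9), against 11.5% of 27025 genes with a promoter in the table. The interferon core was found in 3 (7.32%: Psmb3, Psmd4 and Psmd9), against 3.46% of genes, and CCAAT in 14 (34.1%), against 37.5%. A match describes the letters only and is not a binding site.

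Liver expressed all 31 genes of the 26S proteasome. On the TPM scale, which corrects for transcript length and library size, the means of 15 libraries ranged from 47.9 for Psmd14, the lid deubiquitinase, to 251 for Psmb3, a beta-ring subunit. Psmb7 (248), Psmb5 (235) and Psmb4 (231) came next, and their ranges over the libraries overlapped that of Psmb3, so the order of these 4 is not resolved. The median was 153 TPM over the 14 core genes and 82.9 TPM over the 17 genes of the 19S regulator. Psme2 (171 TPM) and Psme1 (148 TPM), which form the PA28 activator, were at the level of core subunits, and the immunoproteasome subunits were lower, at 46.3 (Psmb8), 39.7 (Psmb10) and 28.9 TPM (Psmb9). Assembly chaperones of the core and the base were at 11.0 to 31.5 TPM.

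**Figure D1:**
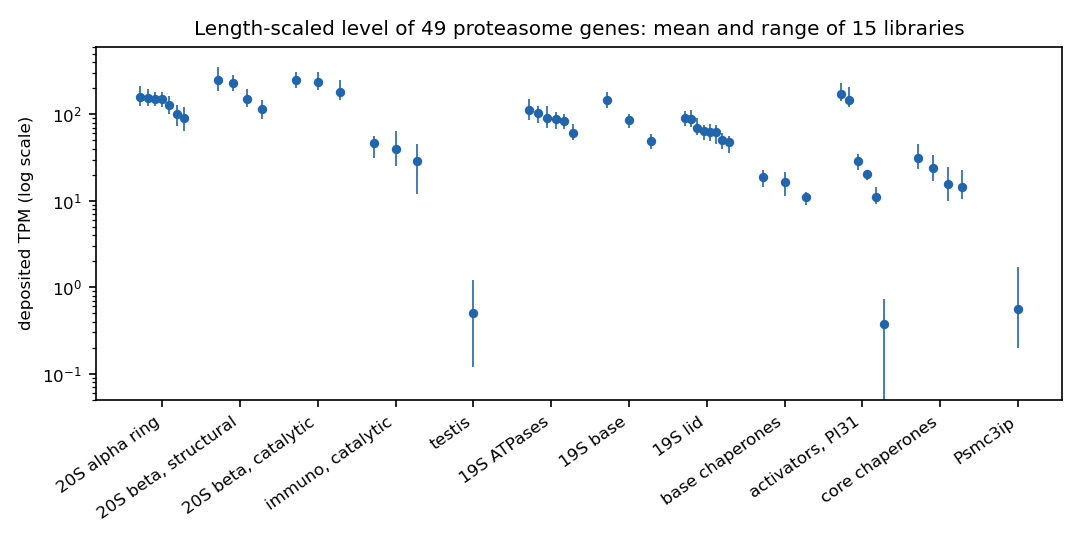
Mean level of each of the 49 proteasome genes (TPM, log scale) by role, with lines for the range over 15 libraries; the line of Psme2b, an activator gene, runs to 0 and leaves the axis. Genes of the 20S and 19S particles sit between 47.9 and 251 TPM, and Psma8, Psme2b and Psmc3ip sit under 1.

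Among the genes at the bottom, Psma8, which replaces an alpha subunit in testis, had 2 to 24 counts per library (mean 0.508 TPM). Psme2b and Psmc3ip had too few counts to be tested, at 0.379 and 0.560 TPM, so 47 of the 49 genes were tested. Psme2b is a near copy of Psme2, and how the authors' counting divided their shared reads is uncertain.

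On the high-fat model diet the 31 genes of the 26S proteasome lay around their control levels. No proteasome gene passed edgeR's quasi-likelihood test at a Benjamini-Hochberg adjusted p under 0.05 in model against control (0 of 47), where 4.46% of the 12658 genes tested passed. At an unadjusted p under 0.05 there were 2 higher genes, Psmb9 and Psma1, and 1 lower, Psmg1, where 10.8% of all genes tested were higher and 10.9% lower. DESeq2 called 1 (Psmb9), and 7.71% of all genes. The median log2 fold change was 0.00 over the 31 genes, with 16 of 31 above 0, against -0.01 over all genes tested. Model and control ranges did not overlap for 9 higher and 3 lower proteasome genes, and this was the case for 15.1% and 14.9% of all genes tested. For Psmb5, a catalytic subunit, the log2 fold change was -0.08 with a 95% interval of -0.29 to 0.14, and differences inside that interval are not excluded.

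The immunoproteasome subunits had the largest differences among the catalytic genes on the model diet, and none of them passed. Psmb9, on chromosome 17 (34182030 to 34187330, GRCm38.p6), was at 11.9, 6.31 and 7.83 CPM in control libraries 1, 2 and 3 and at 14.9, 10.4 and 17.6 CPM in model libraries 1, 2 and 5. Its log2 fold change was 0.71 ± 0.20 (SE; edgeR adjusted p = 0.0567), and the ranges overlapped because control 1 was above model 2. Without control 1 the value was 1.01 (adjusted p = 0.00778), without model 2 it was 0.89 (adjusted p = 0.0271), with DESeq2 the adjusted p was 0.0210, and over the leave-one-out fits of these groups the adjusted p reached 0.238. Psmb8, in the same cluster, was at 39.7, 26.5 and 24.3 CPM in control and 40.9, 32.4 and 41.8 CPM in model libraries (log2 0.35 ± 0.17, adjusted p = 0.238). It passed without control 1 (0.60, adjusted p = 0.0243). Control 1 was the highest control library for Psmb8, Psmb9 and Psmb10.

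One of 13 listed antigen-processing genes, Tap1, the peptide transporter gene that starts 225 bases from Psmb9, was picked out although it did not pass. Its log2 value was 0.43 ± 0.14 (SE) in model against control (edgeR adjusted p = 0.0892). The 13 genes together summed to 6004 to 6549 CPM in control and 5376 to 6748 CPM in model libraries, with overlap. Macrophage markers were also higher on the model diet: 4 of 15 rose (Clec4f, Csf1r, Cd68 and Mrc1), where 278 of the 12658 genes tested did. Their summed level went from 152 to 248 CPM in control to 316 to 457 CPM in model libraries, with none at 0. By library the sum did not always follow Psmb9. Model 5 was the highest model library for both, but control 2 had the highest control sum and the lowest Psmb9 value. Of 12 endothelial markers 5 rose, and of 11 tested T and NK cell markers 1 rose (Cd4), with a sum over 13 markers of 5.35 to 15.5 CPM in control and 12.2 to 20.5 CPM in model libraries. None of 7 tested B and plasma cell markers passed in edgeR (5 were higher at an unadjusted p under 0.05, and 1 passed with DESeq2), and the sum over 8 was 4.90 to 6.71 CPM in control and 8.61 to 10.7 CPM in model libraries, without overlap. The part of these cells in the values of Psmb8 and Psmb9 was not tested.

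With quercetin, genes of the core particle were higher than in the model group, and 7 of 47 proteasome genes rose (14.9%), against 7.82% of all genes tested, or 4.06% in the higher direction. They were the alpha-ring subunits Psma4 and Psma7, the beta-ring subunits Psmb3 and Psmb6, the immunoproteasome subunit Psmb10, the base chaperone Psmd9 and the core chaperone Psmg1. None fell in the edgeR test (3.76% of all genes did), none of the 17 genes of the 19S regulator rose, and the difference between the particles was not tested. The log2 fold changes of the 7 genes were 0.36 to 0.68. The median over the 14 core genes was 0.33 (14 of 14 above 0), over the 17 regulator genes 0.10 (13 of 17), and over all genes tested 0.01. At an unadjusted p under 0.05 there were 18 higher genes and 1 lower, where 12.2% of all genes tested were higher and 10.9% lower. DESeq2 called 11 (10 higher, 1 lower), where 4.97% of all genes were called higher and 5.14% lower, and the authors' deposited table gives 3 with a q-value under 0.05 (Psma7, Psmb3 and Psmb10). The count with edgeR, in either direction, was 2 without model 1 or without model 2, and 3 without quercetin 8, where Psmd11 passed as lower. It was 4 without model 5, control 2, control 3, kaempferol 3 or myricetin 7, and 10 without myricetin 8.

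Transcript length moved with this comparison. Across the 12658 genes the Spearman correlation of relative transcript length with the quercetin log2 fold change was -0.32, described across genes of the same libraries, and with genes put into 4 classes of equal size by length, the median log2 fold change was 0.18 in the shortest class and -0.12 in the longest. All 14 core genes, 13 of the 17 regulator genes and 38 of the 47 tested proteasome genes were in the shortest class. When each library's trend with length was removed, 3 proteasome genes passed, where 2.74% of all genes tested passed as higher and 3.11% as lower: Psmb10 (log2 0.52, adjusted p = 0.0113) and Psmb3 (0.29, adjusted p = 0.0471) were higher and Psmd11 was lower. The median over the 26S genes was then 0.07 in place of 0.20, and over the core 0.12 in place of 0.33. Ribosomal protein genes, which are also short, were higher with quercetin too: 15 of 30 rose (median 0.39), against 4.06% of all genes tested. As group means, the ribosomal genes differed from the 26S genes. Their median deviation from each gene's 15-library mean averaged 0.17 in control and -0.18 in model libraries, where the 26S genes had -0.13 and -0.11. In myricetin and kaempferol libraries it was -0.08 and -0.12 (SD 0.19 and 0.14), where the 26S genes had 0.10 and 0.04 (SD 0.14 and 0.09). By library, ribosomal and core genes moved alike in part. Myricetin 5, 7 and 8 were at -0.26, -0.12 and 0.12 (core -0.01, 0.07 and 0.31). Kaempferol 5 was the highest (0.04, core 0.13) and kaempferol 8 the lowest (-0.23, core -0.14) of its group. Quercetin 8 was the highest in both (0.39 and 0.40), but quercetin 2 and 5 were in opposite order. This was not tested. With library totals in place of scaling factors, 24 proteasome genes rose, against 11.7% of all genes tested, and the 26S median was 0.34, on a scale where the median of all genes tested was shifted by 0.15.

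**Figure D2:**
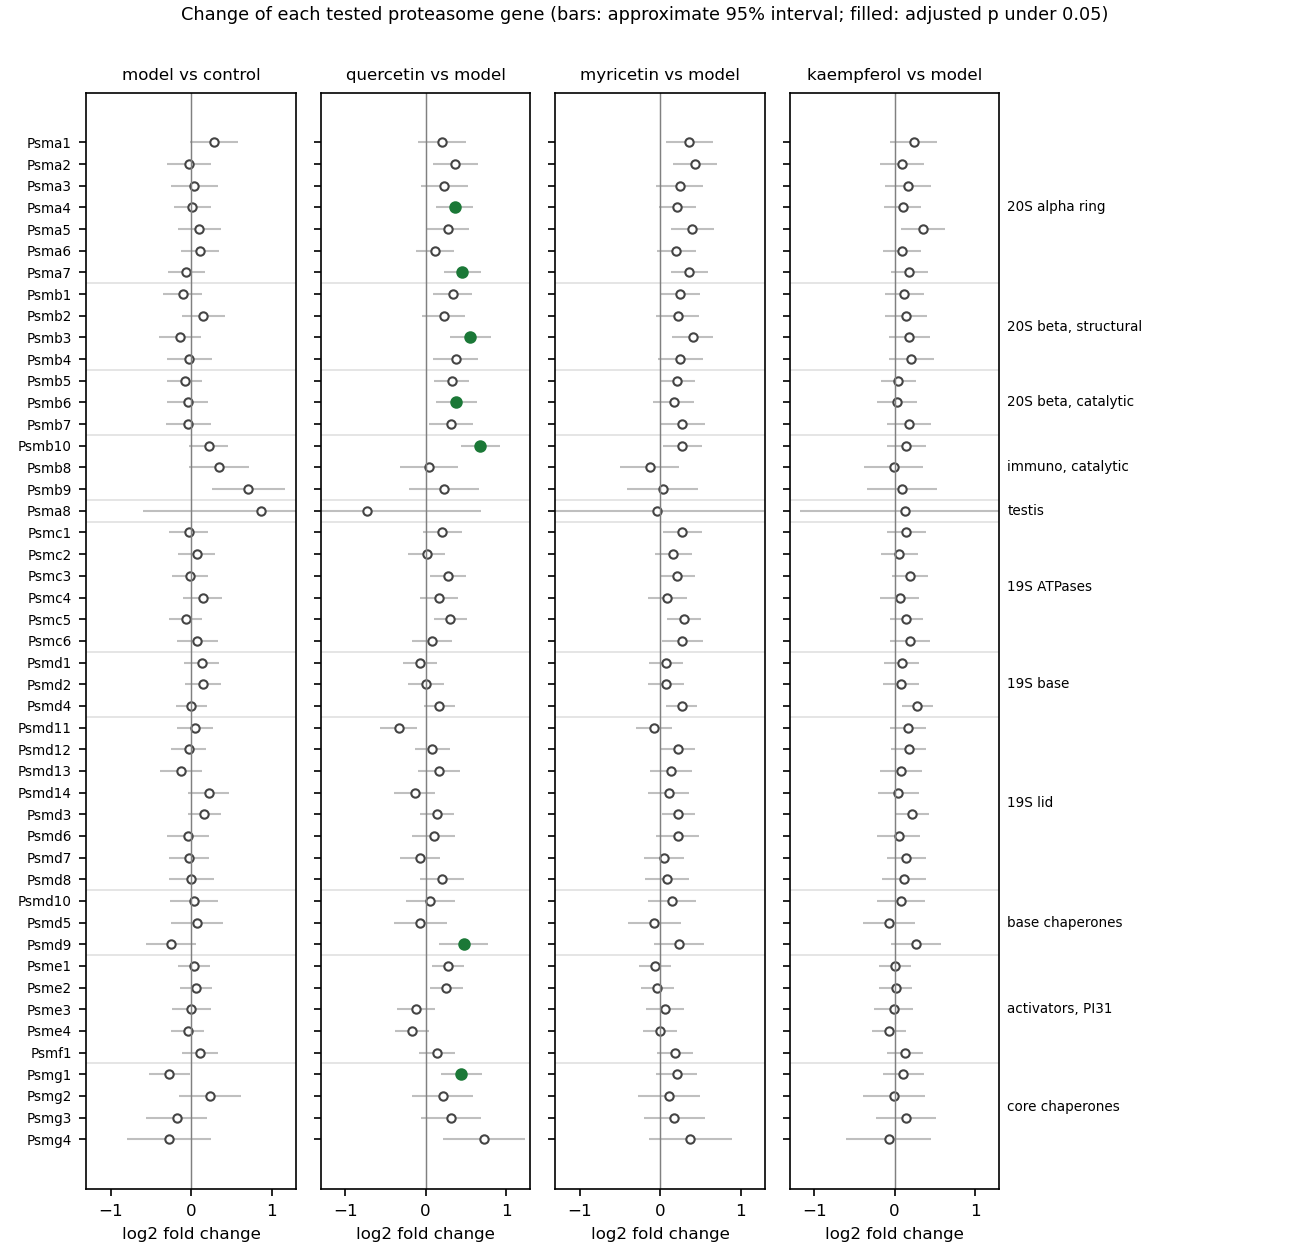
Log2 fold change of each tested proteasome gene in the 4 comparisons, grouped by role, with approximate 95% intervals as bars and filled points for an adjusted p under 0.05 (edgeR); the interval of Psma8 runs past the axis. The 7 filled points are all in the quercetin panel, at 0.36 to 0.68.

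Psmb10 had the largest log2 fold change among the genes that passed. It encodes the immunoproteasome subunit that replaces Psmb7 and lies on chromosome 8 (105935728 to 105938392), 1158 bases from Lcat. It was at 26.6, 22.1 and 23.4 CPM in control libraries, 30.8, 24.5 and 28.5 in model, 44.1, 43.1 and 47.2 in quercetin, 33.2, 37.6 and 30.6 in myricetin and 30.8, 30.9 and 31 in kaempferol libraries. The 3 quercetin libraries were above all 12 others. Its log2 fold change with quercetin was 0.68 ± 0.11 (SE, 95% interval 0.44 to 0.92, edgeR adjusted p = 0.00134). It passed in all 14 alternative fits counted for this comparison, with adjusted p up to 0.0113. Of these fits, 6 left out a model or quercetin library, and fits without libraries of other groups were not counted. The other immunoproteasome subunits did not pass with quercetin: Psmb8 had 0.04 ± 0.16 (adjusted p = 0.911) and Psmb9 had 0.23 ± 0.20 (adjusted p = 0.526).

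Set against its standard counterpart, Psmb10 reached 20.1% ± 1.77 of the TPM of Psmb7 with quercetin, from 15.2% ± 1.19 in model and 13.0% ± 1.58 in control libraries (SD, n = 3). The quercetin libraries were at 20.6%, 21.5% and 18.1%, above every control and model library, while the myricetin (12.0% to 18.3%) and kaempferol (13.0% to 16.8%) libraries overlapped the model. Psmb8 was at 17.1% of Psmb5 in control, 22.9% in model and 18.9% in quercetin libraries. The control range overlapped both others, and the quercetin libraries (17.5% to 19.76%) were all below the model libraries (19.78% to 24.6%), by a narrow margin. Psmb9 was at 10.7%, 17.7% and 16.1% of Psmb6 in the same groups, with overlap among all 3. These ratios were not tested.

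**Figure D3:**
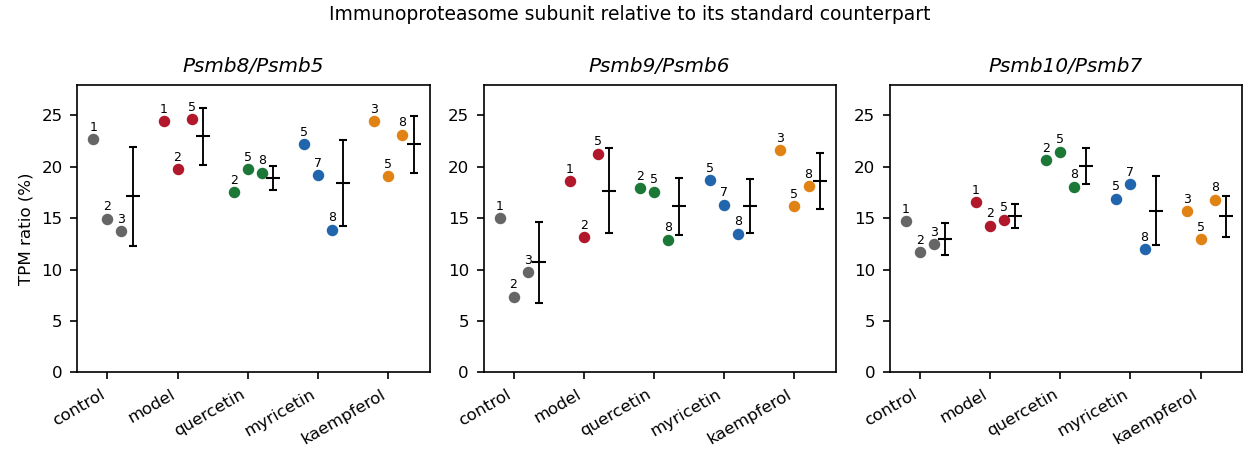
TPM of each immunoproteasome subunit as a percent of its standard counterpart, by library (points, numbered as in the labels) with mean and SD of 3 libraries per group. For Psmb10 and Psmb7 the quercetin libraries (18.1% to 21.5%) lie above all control and model libraries, and for Psmb8 and Psmb5 they lie just below the model libraries.

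Psmb3, a beta-ring subunit without a catalytic threonine (chromosome 11, 97703434 to 97713500), was at 82.7, 92.2 and 89 CPM in control libraries, 80.8, 75.9 and 83.4 in model, 116, 102 and 135 in quercetin, 94.1, 113 and 111 in myricetin and 85.7, 103 and 84.1 in kaempferol libraries. All 3 quercetin libraries were above all control and model libraries. Its log2 fold change was 0.56 ± 0.12 (SE; edgeR adjusted p = 0.00799), and the call was lost without model 2 (adjusted p = 0.0535). Psma7, an alpha-ring subunit (chromosome 2, 180036367 to 180042464), was at 78.4, 81.9 and 83.6 CPM in control libraries, 76.3, 77.4 and 80.6 in model, 96.2, 104 and 122 in quercetin, 89.7, 101 and 109.9 in myricetin and 90.3, 93.8 and 81.6 in kaempferol libraries. Here too the quercetin libraries stood above control and model, by 0.46 ± 0.10 on the log2 scale (edgeR adjusted p = 0.0134), and the call was lost without model 1, model 2 or quercetin 8 (adjusted p 0.0536 to 0.0661) and with the length correction (0.24, adjusted p = 0.0819).

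The other 4 genes passed near the threshold. Psma4, an alpha-ring gene, was at 90.8, 95 and 103 CPM in model and 115, 114 and 143 CPM in quercetin libraries (log2 0.36 ± 0.10, edgeR adjusted p = 0.0404). Psmb6, which carries the caspase-like site, was at 106, 102 and 107 against 134, 122 and 154 CPM (0.38 ± 0.11, edgeR adjusted p = 0.0490). In both genes quercetin 8 was the highest library in CPM, but the lowest quercetin library in TPM. Psma4 was at 190 TPM there, against 199 and 193 in quercetin 2 and 5, and Psmb6 at 223, against 251 and 225. Psmd9, a chaperone of the 19S base, was at 29.7, 25 and 24.5 against 32, 35.2 and 42.7 CPM (0.47 ± 0.14, edgeR adjusted p = 0.0480), but control libraries, at 30.2, 35 and 28.7 CPM, overlapped the quercetin libraries. Psmg1, a chaperone of the core, was at 15.5, 19 and 17.3 against 24.3, 23 and 23.2 CPM (0.45 ± 0.12, edgeR adjusted p = 0.0262), with control libraries at 21, 20.7 and 20.7 CPM, so the quercetin libraries were above both groups. Psma4 lost its call in 4 of the 6 fits that left out a model or quercetin library (without model 1, 2 or 5 or quercetin 8, adjusted p up to 0.159). Psmb6 lost it in 5 (it passed only without quercetin 5; adjusted p up to 0.178), Psmd9 in 5 (it passed only without quercetin 2; up to 0.179) and Psmg1 in 5 (it passed only without model 2; up to 0.127). With the length correction the adjusted p of Psma4, Psmb6, Psmd9 and Psmg1 was 0.228, 0.196, 0.0536 and 0.164. Psma4 shares 174 bases with a neighbouring coding gene, AY074887, and the strand used in counting was not stated.

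**Figure D4:**
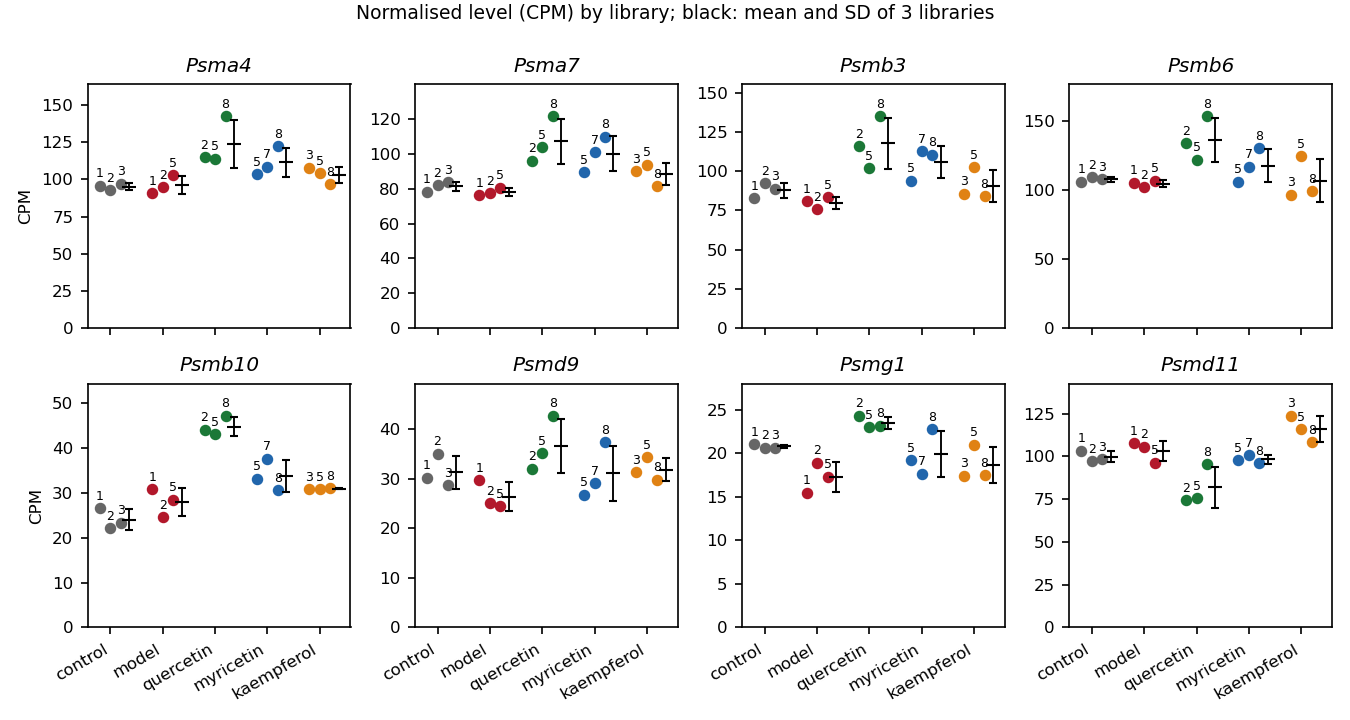
Level of 8 proteasome genes by library (CPM on scaled library sizes; points numbered as in the labels), with mean and SD of 3 libraries per group. Quercetin libraries are highest for Psmb10, and they are lowest for Psmd11.

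The standard catalytic subunits Psmb5 (chymotrypsin-like site) and Psmb7 (trypsin-like site) did not pass with quercetin. Psmb5 was at 111, 112 and 112 CPM in control libraries, 106, 104 and 108 in model, 131, 122 and 146 in quercetin, 114, 120.2 and 135 in myricetin and 103, 121 and 104 in kaempferol libraries. The quercetin and model ranges did not overlap, and the log2 fold change was 0.33 ± 0.10 (SE; edgeR adjusted p = 0.0506). Psmb7 was at 124, 116 and 128 CPM in model and 146, 137 and 177 in quercetin libraries, also without overlap (0.32 ± 0.12, edgeR adjusted p = 0.130). Of the PA28 activator genes, which lie together on chromosome 14, Psme1 was at 88.7, 76.2 and 85.4 CPM in model and 103, 101 and 99.8 CPM in quercetin libraries (0.28 ± 0.09, edgeR adjusted p = 0.0649). Psme2 was at 85.9, 84.2 and 87.9 against 100.4, 98.5 and 109 CPM (0.26 ± 0.09, edgeR adjusted p = 0.0966). For both, the 3 quercetin libraries were above every control and model library.

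Psmd11, a lid subunit, went the other way and was singled out after its values were seen. It was at 103, 97.4 and 98.6 CPM in control libraries, 108, 106 and 96.4 in model, 74.5, 75.7 and 95.4 in quercetin, 97.9, 101 and 96 in myricetin and 124, 116 and 108 in kaempferol libraries. All 3 quercetin libraries were below every control and model library, and it was the one proteasome gene of which this was so. The log2 fold change with quercetin was -0.34 ± 0.10 (edgeR adjusted p = 0.0521). It passed with DESeq2 (adjusted p = 0.0203), with the length correction (-0.38, adjusted p = 0.0259) with upper quartile factors (adjusted p = 0.0377) and without quercetin 8 (-0.46, adjusted p = 0.00973). It did not pass in the other 5 fits that left out a model or quercetin library (adjusted p 0.0526 to 0.174), with only the groups compared (0.109), with library totals (0.183) or with the replicate number as a block (0.259). Kaempferol libraries were above the model libraries.

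The library values were also counted against the control and model groups together. All 3 quercetin libraries exceeded all 6 control and model libraries for 19 of 47 proteasome genes (40.4%), against 7.14% of all genes tested. For myricetin this was 17 of 47 (36.2%), against 4.61%, and for kaempferol 10 of 47 (21.3%), against 5.42%. The reverse held for Psmd11 with quercetin (6.56% of all genes) and for no proteasome gene with myricetin (3.83%) or kaempferol (3.87%). These counts share the control and model libraries, and proteasome genes are not independent of each other. They were made without the length correction, and 38 of the 47 genes were in the shortest length class.

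The median deviation of the 31 genes from their own 15-library means placed single libraries. Control libraries were at -0.14 to -0.12 and model libraries at -0.12 to -0.10 on the log2 scale. Quercetin 2, 5 and 8 were at 0.04, -0.04 and 0.28, myricetin 5, 7 and 8 at -0.01, 0.05 and 0.26, and kaempferol 3, 5 and 8 at 0.09, 0.10 and -0.06. On this scale of TMM-scaled CPM all 9 flavonol libraries were above all 6 others. Quercetin 8 and myricetin 8 were the highest, with 30 of the 31 genes above their mean. The lead of quercetin 8 depended on the scale. Its TMM factor was 0.967, against 1.10 and 1.11 in quercetin 2 and 5, and its proteasome share of counts was 0.405%, against 0.399% and 0.383%. Its summed proteasome TPM (4859) was below theirs (5398 and 5065). Myricetin 8 had the highest share (0.408%) and TPM sum (4864) of its group. Without quercetin 8 the median quercetin log2 fold change of the 26S genes was 0.09, against 0.20 with it, and that of the core genes was 0.23, against 0.33. Without myricetin 8 the 26S median for myricetin was 0.14, against 0.22. Markers of stellate cells and fibroblasts ran opposite to the core genes among the flavonol libraries. Their sum over 12 genes was 305, 401 and 222 CPM in quercetin 2, 5 and 8, 414, 234 and 224 CPM in myricetin 5, 7 and 8, and 441, 263 and 421 CPM in kaempferol 3, 5 and 8, against 353 to 400 CPM in model and 293 to 342 CPM in control libraries. The 5 flavonol libraries with the lowest sums were the 5 in which the median deviation of the core genes was above 0. This split was picked out after the values were seen, and it did not hold for the regulator or the 26S genes. Kaempferol 3, with the highest sum, was at 0.16 for the regulator genes and 0.09 for the 26S genes. In control 1, 2 and 3 the sum (293, 334 and 342 CPM) and the core deviation (-0.17, -0.14 and -0.13) rose together. None of the 12 markers passed in any of the 4 edgeR comparisons (1 was lower with quercetin at an unadjusted p under 0.05, and 1 fell there with DESeq2), none was at 0 in all libraries, and their part in the proteasome values was not tested.

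**Figure D5:**
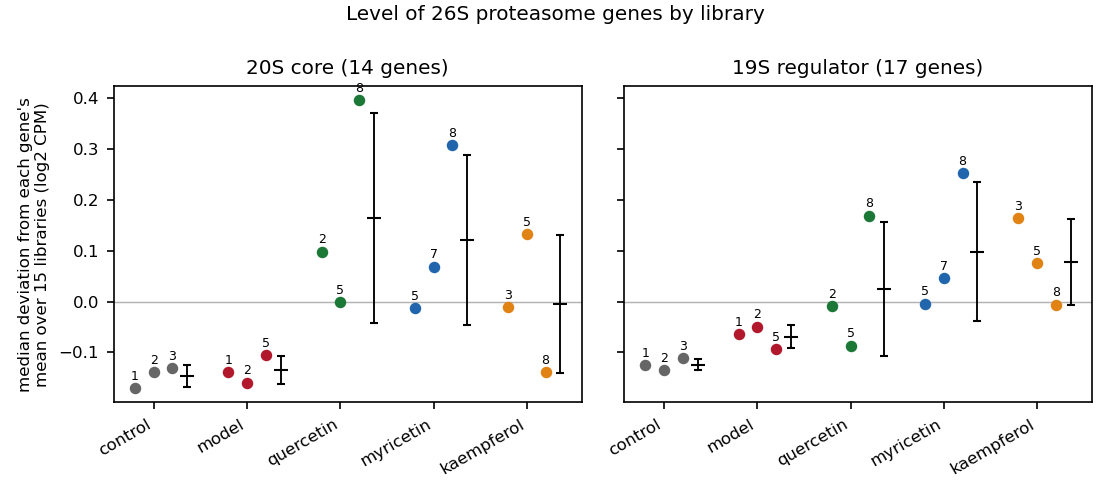
Median deviation of the 14 core genes (left) and the 17 regulator genes (right) from each gene's mean over 15 libraries (log2 CPM), by library, with mean and SD of 3 libraries per group. Quercetin 8 and myricetin 8 stand highest for the core genes, and kaempferol 8 lies within the range of the model libraries for the core genes.

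With myricetin the 26S genes were above the model by a median of 0.22 (30 of 31 above 0), yet none passed. The count was 0 of 47 with edgeR, where 0.395% of all genes tested passed, and 0 with DESeq2 (1.64% of all genes), and 16 genes were higher at an unadjusted p under 0.05, as were 6.16% of all genes tested. The 3 smallest p-values belonged to Psma2, Psmb3 and Psma7. Psma2, an alpha-ring subunit, was at 62.2, 63.6 and 63.5 CPM in control libraries, 59.6, 61.6 and 64.9 in model, 75.5, 69.6 and 95.5 in quercetin, 73.9, 89 and 89.1 in myricetin and 65.7, 75 and 57.2 in kaempferol libraries. Myricetin libraries were above all control and model libraries for Psma2 (log2 0.44 ± 0.12, edgeR adjusted p = 0.146). Psmb3 had a log2 value of 0.40 ± 0.11 (edgeR adjusted p = 0.149) and Psma7 one of 0.36 ± 0.10 (edgeR adjusted p = 0.151), with the library values given above. Myricetin and model ranges did not overlap for 21 proteasome genes, all higher, 12 of them among the 14 core genes, against 9.54% of all genes tested that were higher and 9.23% that were lower. With library totals 4 proteasome genes rose, against 0.506% of all genes tested. The correlation of length with the log2 fold change was -0.17, and the 26S median was 0.16 with the length correction.

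With kaempferol no proteasome gene passed. The median was 0.14 over the 26S genes, 0.15 over the core and 0.14 over the regulator, with 31 of 31 above 0, and 0 of 47 passed with edgeR (0.0395% of all genes tested) or with DESeq2 (1.57% of all genes). At an unadjusted p under 0.05 there were 3 higher genes, Psmd4, Psma5 and Psmd3, where 7.11% of all genes tested were. Psmd4, the ubiquitin receptor of the base, was at 113, 116 and 117 CPM in control libraries, 115, 112 and 119 in model, 136, 122 and 132 in quercetin, 128, 140.1 and 150.1 in myricetin and 145, 142 and 134 in kaempferol libraries. Its kaempferol libraries were above all control and model libraries (log2 0.28 ± 0.09, edgeR adjusted p = 0.198). Psma5, an alpha-ring subunit, was at 70.6, 70.2 and 65.1 CPM in model and 91.5, 88 and 83.5 CPM in kaempferol libraries (0.35 ± 0.12, edgeR adjusted p = 0.235), and Psmd3, a lid scaffold, at 92.7, 87.1 and 88.3 against 109, 103 and 99.7 CPM (0.21 ± 0.09, edgeR adjusted p = 0.375). In both genes the ranges did not overlap, as for 15 proteasome genes in all, all higher, against 10.2% of all genes tested that were higher and 8.75% that were lower. The 26S median was 0.09 without kaempferol 5. The correlation with length was -0.08, and the 26S median was 0.11 with the length correction.

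Tested for any difference among the 5 groups with edgeR, 11 of 47 proteasome genes passed (23.4%), against 16.1% of all genes tested. They were Psma1, Psma2, Psma5, Psma7, Psmb3, Psmb9, Psmb10, Psmd3, Psmd4, Psmd11 and Psme1, and Psmb10 had the smallest adjusted p (0.000800). Psma1, an alpha-ring subunit, was at 59, 55.8 and 53.5 CPM in control libraries, 67.8, 73 and 64 in model, 72.5, 67.5 and 95.8 in quercetin, 81.7, 79 and 103 in myricetin and 85.9, 83.3 and 72.2 in kaempferol libraries, with control below all other groups. The count of 11 was 3 without control 2 or control 3 (Psma7, Psmb3 and Psmb10), 5 without model 2 and 7 without kaempferol 3 or quercetin 2. With library totals it was 29, against 19.5% of all genes tested.

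Among the genes known to regulate the subunits, the transcription factor and its partners did not move one way. Nfe2l1 was at 123, 117 and 111 CPM in control libraries, 133, 117 and 116 in model, 83.3, 107 and 104 in quercetin, 106, 119.7 and 90.6 in myricetin and 136, 132 and 111 in kaempferol libraries. Its quercetin libraries were below the model libraries (log2 -0.31 ± 0.12, edgeR adjusted p = 0.133). Of 7 genes of this pathway, 2 rose with quercetin and 1 fell. Mafk rose from 10.0 ± 0.45 to 16 ± 2.63 CPM (SD, n = 3 each; log2 0.67 ± 0.15 SE, edgeR adjusted p = 0.0108), and Maff from 2.03 ± 0.605 to 6.45 ± 1.07 CPM (1.67 ± 0.38, edgeR adjusted p = 0.0142). Ddi2, the protease that activates NRF1, fell by 0.59 ± 0.14 on the log2 scale (edgeR adjusted p = 0.0209). Mafk lost its call without model 1 (adjusted p = 0.0508), Maff without model 2 (0.0751) and Ddi2 in 4 of 6 fits (without model 1 or 2 or quercetin 2 or 8, up to 0.102). No gene of this pathway passed in the other comparisons.

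Of the 9 listed subunits and assembly factors that carry other symbols, 6 were tested and none passed in any comparison. Adrm1, a ubiquitin receptor of the base, had log2 values of -0.11, 0.13, 0.29 and 0.33 in the model, quercetin, myricetin and kaempferol comparisons (lowest edgeR adjusted p = 0.191), and Pomp, which assembles the core, had 0.14, 0.13, -0.01 and 0.10. Of 12 shuttle factors and bound enzymes, Zfand5 rose on the model diet (log2 0.47, edgeR adjusted p = 0.0253). With quercetin Zfand2b (0.48), which delivers substrates, rose, and Ubqln1 (-0.41), a shuttle, fell, at edgeR adjusted p of 0.0195 and 0.0206. All 3 calls were lost without model 1, and each was lost in 4 or 5 of the 6 fits that left out a library of its groups, at adjusted p up to 0.116.

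Of 6 ubiquitin genes and E1 enzymes, Rps27a, which encodes ubiquitin fused to a ribosomal protein, fell on the model diet (log2 -0.52 ± 0.11, edgeR adjusted p = 0.0182) and rose with quercetin (0.54 ± 0.11, edgeR adjusted p = 0.00779). It was at 194, 199 and 225 CPM in control libraries, 142, 141 and 148 in model, 201, 194 and 233 in quercetin, 147, 160.3 and 190.1 in myricetin and 149, 161 and 138 in kaempferol libraries. With the length correction its quercetin value was 0.28 (adjusted p = 0.0589), and the model call was lost in 5 of 6 fits (all but the one without control 1, up to 0.0810). Of 9 tested genes of the p97 segregase, which pulls substrates out of complexes, none passed. Of 13 antigen-processing genes, with quercetin Tapbpl, a peptide editor, rose (0.36, edgeR adjusted p = 0.0480), and Calr (-0.67), Canx (-0.42) and Pdia3 (-0.57), chaperones of the endoplasmic reticulum, fell (edgeR adjusted p 0.00419, 0.0122 and 0.0133). The call of Tapbpl was lost in each of 6 fits that left out a model or quercetin library (adjusted p up to 0.165), that of Canx without model 1, model 2 or quercetin 5 (up to 0.0762), and that of Pdia3 without model 2 or quercetin 5 (up to 0.0537).

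Other groups of genes moved in the same libraries. The 14 heat shock genes summed to 4350 to 8613 CPM in control, 3978 to 5286 in model, 2912 to 4028 in quercetin, 2773 to 4018 in myricetin and 3027 to 3733 in kaempferol libraries, and 3 fell with quercetin (Hsp90aa1, Hsp90ab1 and Hspa4l). Summed macrophage markers were 316 to 457 CPM in model, 419 to 478 in quercetin, 422 to 602 in myricetin and 543 to 1141 in kaempferol libraries, and none of the 15 passed with a flavonol. Of the 4 neutrophil markers tested, S100a8 and S100a9 rose with quercetin, at a summed level of 6.65 to 14.8 CPM over 10 markers. With quercetin the plasma cell marker Jchain rose, and the T cell marker Cd4 and the endothelial marker Vwf fell. The part of these groups in the proteasome values was not tested.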

How the data were processed

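Liver RNA of 15 libraries in 5 groups of 3 was analysed from the deposited gene table. Per the file headers it gives read counts of each gene, which are expected counts not scaled between libraries (5.37% were not whole). It also holds TPM, used as deposited to compare levels between genes, and the authors' log2 fold changes and the authors' q-values for 4 comparisons, from which only calls under 0.05 were taken. A further 30 columns of per-sample or averaged values were not used. The submitters' processing notes name RSEM 1.3.1, Bowtie2 2.3.4.3, HISAT2 2.1.0 and DESeq2 1.4.5 and the build GRCm38.p6, without their roles. Strand was not stated.

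Counts were rounded, filtered with filterByExpr (12658 genes left), scaled with TMM factors (0.925 to 1.11) and entered into edgeR 4.0.16 (R 4.3.3; quasi-likelihood fit, robust), with 1 mean per group over all 15 libraries and 10 residual degrees of freedom. Tests were 2-sided with Benjamini-Hochberg adjustment over all genes tested, at 0.05. Standard errors were derived from the log2 fold change and its F statistic, and 95% intervals are approximate. CPM use TMM-scaled library sizes. The common biological coefficient of variation was 0.155. The script was tested on simulated data. No libraries were identical, and the closest pair differed by 16.7 chi-square units per degree of freedom.

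Members and lists were chosen with earlier results of these data known. Library values are given for members that passed, for the immunoproteasome subunits with their counterparts, for Psme1 and Psme2, and for the 3 smallest p-values where none passed. Psmd11, Tap1, members of the 5-group test and the split of libraries by stellate markers are additions. From companion lists, passing genes (at most 3 per direction), Nfe2l1, Adrm1 and Pomp are named, and 2 genes of these lists are not reported here. Alternatives were DESeq2 1.42.0, other scalings, no filter, only the groups compared, a replicate block and leaving out each library. Library totals, leaving out libraries of other groups and the length correction (a lowess trend of each library over relative transcript length, used as an offset) were added after seeing the data. Gene positions are those of RefSeq, since 10 deposited positions span alternate scaffolds.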

Additional observations from a re-analysis of the deposited data

How the results depend on the processing

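In model against control, the count of proteasome genes that passed (0 of 47) was 1 with DESeq2, 1 with the length correction and 0 to 2 when a library was left out. With quercetin it was 7, and became 11 with DESeq2, 24 with library totals, 4 with no low-count filter, 4 with only the groups compared, 3 with the length correction, and 2 to 10 when a library was left out. The quercetin median of the 26S genes (0.20) was 0.34 with library totals, 0.066 with the length correction and 0.092 to 0.27 when a library was left out. With myricetin 4 genes passed with library totals. The 5-group test (11 genes) gave 29 with library totals and 3 to 11 when a library was left out. No called value changed sign. The causes of these differences were not tested.

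Some groups share replicate numbers. The deviations of same-numbered libraries from their group means had correlations of -0.24 to 0.10 over all 14 such pairs between groups (0.098 for quercetin 8 and myricetin 8), none over 0.1. The labels do not say what the numbers mean. Deviations from means of 3 libraries cannot show whether same-numbered libraries share anything more than a number. With the replicate block, 1 proteasome gene (Psmb10) passed with quercetin and 1 in the 5-group test. With 3 libraries per group, the median standard error over all genes tested was 0.16 on the log2 scale in model against control. The smallest log2 fold change of a proteasome gene to pass with quercetin was 0.36 (Psma4), with a standard error of 0.10.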
